A study of Mus musculus with 12 samples.

Results

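A set of 5 genes of blood vessel endothelium and of vascular endothelial growth factor (VEGF) signalling, Flt1, Kdr, Gpr182, Cdh5 and Vash1, was followed through the authors' deposited lists of differentially methylated mouse liver regions. A region was taken wherever its listed nearest gene was one of these 5. This gave 8 of the 1711 regions in the lists, 7 in tumors, 1 in normal liver and 0 in non-tumor liver. The genes were chosen by the listed methylation differences themselves, that is, for having listed regions. Their presence, their number of regions and the sign of their differences are therefore a description, and no test was made of them.

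The lists compare liver DNA of F2 males of the C3H/HeN strain between an arsenite line, born to F1 mice whose gestation had been exposed to arsenite, and a control line. The arsenite groups are normal liver (AAN), non-tumor liver (AATn) and liver tumor (AATt), and the matching control groups are CCN, CCTn and CCTt, with 3 samples in each. AAN, AATn, AATt and CCTn belong to this series and were taken at 74 weeks of age, whereas CCN and CCTt came from an earlier deposit and entered only through the authors' comparisons. In the normal liver and tumor lists, arsenite line and deposit therefore cannot be told apart. All 8 regions of the 5 genes come from these lists. The arsenite dose, which F1 parent had been exposed and whether 3 samples mean 3 mice are details not given in the sources used here. Methylation was read by reduced-representation bisulfite sequencing (RRBS), in which the enzyme MspI cuts genomic DNA at CCGG and short CpG-rich fragments are sequenced after bisulfite conversion.

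Each list entry gives a methylation difference between the lines in percentage points, the count of CpG sites in the region, how many of them the authors called as differentially methylated (DMCs), and the nearest transcription start site (TSS). No list holds values per sample, read depth or an error, so no value below carries a standard deviation, a confidence interval of the difference or a replicate check. No listed difference was under 20 points in size, so a gene without an entry was not shown to be unaffected. Positive values are taken to mean more methylation in arsenite-line than in control-line samples, although the sources used here leave the sign undefined. With the opposite sign in a list, every direction given here for that list turns over. A whole piece of liver or tumor holds many cell types, so a changed share of endothelial cells and changed methylation within a cell type cannot be told apart.

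VEGF ligands bind receptor tyrosine kinases on endothelial cells. Kdr encodes VEGFR2, the receptor that carries most of the growth and permeability signal, and Flt1 encodes VEGFR1, which binds VEGF-A tightly and also yields a soluble form that holds the ligand away from Kdr. Cdh5 encodes VE-cadherin, the adhesion molecule of endothelial junctions, Gpr182 encodes an atypical chemokine receptor of sinusoidal and lymphatic endothelium, and Vash1 encodes vasohibin-1, an inhibitor of angiogenesis released by endothelial cells that also trims tubulin. The endothelium of liver sinusoids is thin and fenestrated, and liver tumors draw on arterial vessels with a different endothelium. Methylation of CpG-rich start sites commonly goes with a silent gene, while methylation within gene bodies is usual in active genes.

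The 250 bases upstream of a RefSeq start were available for Flt1, Kdr and Vash1 (RefSeq, build GRCm38.p6, the assembly behind mm10). They are shown because a difference at a start site is the usual first question about a methylated gene, and because the MspI sites, written in capitals, are where RRBS fragments begin. They are printed on the strand of the gene, at chr5:147726012-147726261 (minus strand) for Flt1, chr5:75978456-75978705 (minus strand) for Kdr and chr12:86678450-86678699 (plus strand) for Vash1. The Flt1 and Kdr windows lie inside the gene spans, so the start used is not the outermost one. Bases upstream of the outermost start of these genes were not looked at.
Flt1: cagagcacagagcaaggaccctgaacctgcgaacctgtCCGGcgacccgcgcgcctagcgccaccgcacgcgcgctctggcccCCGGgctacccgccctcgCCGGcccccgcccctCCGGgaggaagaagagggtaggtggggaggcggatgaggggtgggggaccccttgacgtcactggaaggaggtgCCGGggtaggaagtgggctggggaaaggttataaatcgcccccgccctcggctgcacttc
Kdr: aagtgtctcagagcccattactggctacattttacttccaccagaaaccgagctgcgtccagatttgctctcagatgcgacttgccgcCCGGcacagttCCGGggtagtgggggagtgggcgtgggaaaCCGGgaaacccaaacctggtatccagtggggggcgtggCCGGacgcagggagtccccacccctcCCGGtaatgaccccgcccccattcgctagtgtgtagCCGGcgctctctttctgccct
Vash1: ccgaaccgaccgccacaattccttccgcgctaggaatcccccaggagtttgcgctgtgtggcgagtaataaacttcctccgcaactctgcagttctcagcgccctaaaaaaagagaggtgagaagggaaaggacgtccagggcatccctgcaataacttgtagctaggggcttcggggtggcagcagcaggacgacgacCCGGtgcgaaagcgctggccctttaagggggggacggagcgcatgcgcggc

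All 3 windows are rich in CpG and hold MspI sites, and 0 listed regions of any tissue overlapped them. The Flt1 window holds 23 CpG dinucleotides and 5 CCGG sites, the Kdr window 16 and 6, and the Vash1 window 20 and 1. As many CpG dinucleotides as in Flt1 occur in 13.3% of the 32851 RefSeq windows of this length, as many as in Kdr in 25.4%, and as many as in Vash1 in 17.9%. A CCGG site occurs in 47.1% of all windows. The nearest listed region lay 10.97 kb from the window of Flt1, 143 kb from that of Kdr and 8.90 kb from that of Vash1. Whether these windows were covered and did not differ, or were not covered, cannot be told from lists of differing regions.

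Motifs that contain a CpG were also searched in these windows on both strands, since methylation could touch them. The GC box GGGCGG was found 3 times in the Flt1 window, 2 times in that of Kdr and 0 times in that of Vash1. It occurs in 32.7% of all windows. The cAMP response element TGACGTCA, chosen after the sequence was seen, was found 1 time in the Flt1 window and in 1.55% of all windows. ACGTG, 1 form of the core of the hypoxia response element, was not among the letters of the 3 windows and occurs in 16.6% of all windows. The other form, GCGTG, was not counted. It can be read in the printed Kdr window and, on the opposite strand, in that of Flt1. GGGCGG and CCGG can share bases, and a match is a string of letters, not a bound site.

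The tumor list held 7 of the 8 regions of these genes, as it held 90.4% of all 1711 regions. Of the 7 tumor regions of these genes, 6 had a positive and 1 a negative difference, whereas 68.7% of all 1547 tumor regions were positive. The regions listed for Flt1, Kdr and Gpr182 stood on the side of higher methylation in the arsenite line, and that of Cdh5 on the side of lower methylation. Flt4, a VEGF receptor gene outside the set, had a negative region at -20.2 points. The median difference of the 7 was 22.9 points, against 21.4 points over the tumor list. These medians mix both signs, so they follow the share of positive regions. Without the sign, the median size was 22.9 points for the 7 and 23.0 points over the tumor list. Over the 7 regions, 38 of 87 CpG sites were DMCs in the authors' deposited table. At least 2 DMCs supported 5 of the 7 regions and 64.4% of the tumor list.

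**Figure D1:**
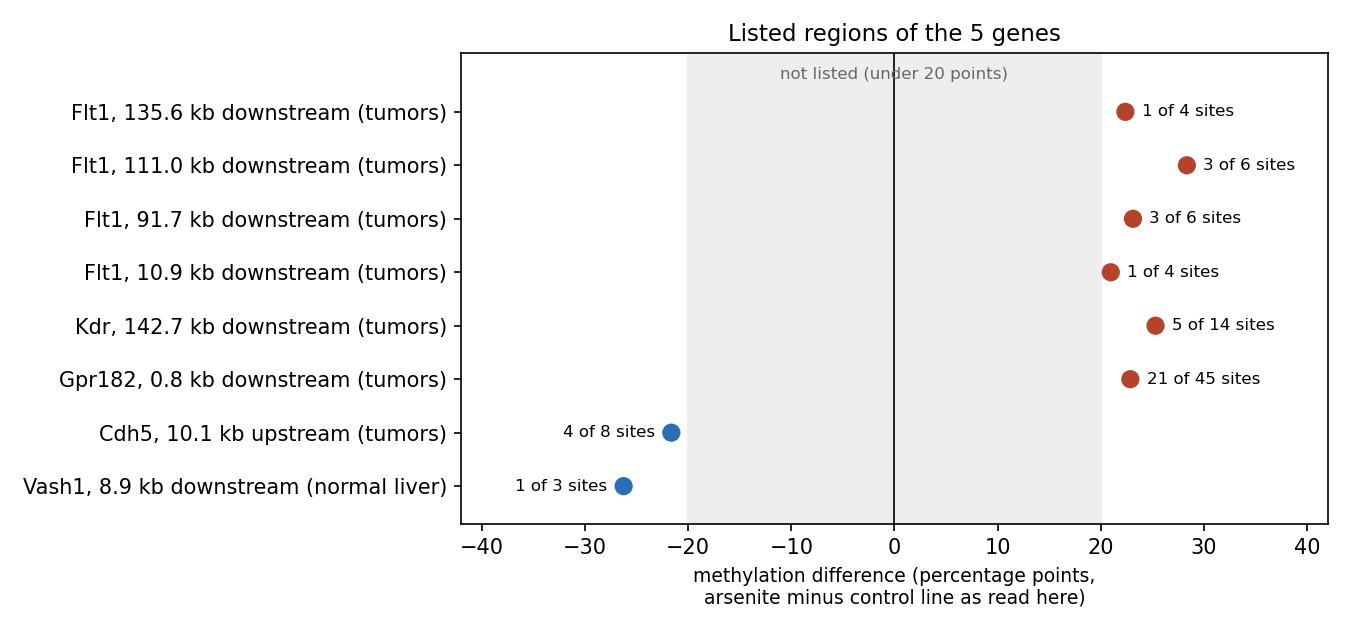
Each point is 1 listed region of the 5 genes, with its methylation difference in percentage points on the horizontal axis, its distance from the TSS at the left and the number of DMCs among its CpG sites beside it; there are no error bars because the lists hold no replicate values. The 6 positive tumor regions lie between 20.98 and 28.4 points, and the negative regions of Cdh5 (tumors) and Vash1 (normal liver) stand at -21.6 and -26.3 points.

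Flt1, the VEGFR1 gene, had 4 tumor regions, all positive and all inside the gene span (chr5:147561604-147726438, mm10, minus strand). The region closest to the TSS, at chr5:147714981-147715046 and 10.9 kb downstream of it, differed by 20.98 points in the authors' deposited table, with 1 DMC among 4 CpG sites. Farther into the gene, at chr5:147634137-147634279 and 91.7 kb downstream, the authors' deposited table gave 23.1 points, with 3 DMCs among 6 sites. The largest Flt1 difference in that table, 28.4 points with 3 DMCs among 6 sites, was at chr5:147614850-147614991, 111 kb downstream. It ranked 121st among the 1063 positive tumor regions, so that 11.4% of them were at least as large. The last, at chr5:147590171-147590376 and 136 kb downstream, differed by 22.4 points in the authors' deposited table, with 1 DMC among 4 sites. The other 3 ranked 505th, 604th and 854th, near the middle of the positive tumor regions or below it.

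The 4 regions together covered 557 bp, or 0.338% of the span, with 20 CpG sites and 8 DMCs. They ran over 125 kb, 75.8% of the length of the gene. The 3 regions farthest from the TSS lay 19.1 and 24.5 kb from each other, and the region near the TSS stood 80.7 kb apart from them. The annotation used here gives gene spans without exons, so exon and intron were not told apart. None of the 4 overlapped Gm35383, a noncoding gene inside the Flt1 span.

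A count of 4 regions at 1 gene is at the upper end of the tumor list. Of its 1347 nearest genes, 7 (0.52%) had 4 regions and none had more. The other 6 were 1700025C18Rik, Cdh13, Erdr1, Gpr133, Ror2 and Taf4a, and the measure of likeness is this count and the sign over 1 comparison. Cdh13, which encodes a cadherin of vascular and other cells, Gpr133, an adhesion receptor gene, and Taf4a, a gene of the general transcription machinery, had 4 positive regions too, while Ror2, a receptor tyrosine kinase gene, had 1 positive and 3 negative. Signs were mixed as well at 1700025C18Rik, with 3 positive and 1 negative, and at Erdr1, with 2 of each. All 4 regions lay inside the span of the listed gene for Flt1, Cdh13 and Ror2, but 3 did for Gpr133, 1 for 1700025C18Rik and 0 for Taf4a and Erdr1.

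Long genes offer more room for regions, and Flt1 is a long gene of 165 kb. Of all gene spans, 6 held at least 4 tumor regions, and they were 141 to 1185 kb long. Flt1 had 2.43 regions per 100 kb. Col13a1, a collagen gene of 141 kb, had 3.55 per 100 kb, Ror2 2.26 and Cdh13 0.422. Among the 268 coding spans of at least 100 kb that held a tumor region, 3, Flt1 included, had as many per 100 kb as Flt1.

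**Figure D2:**
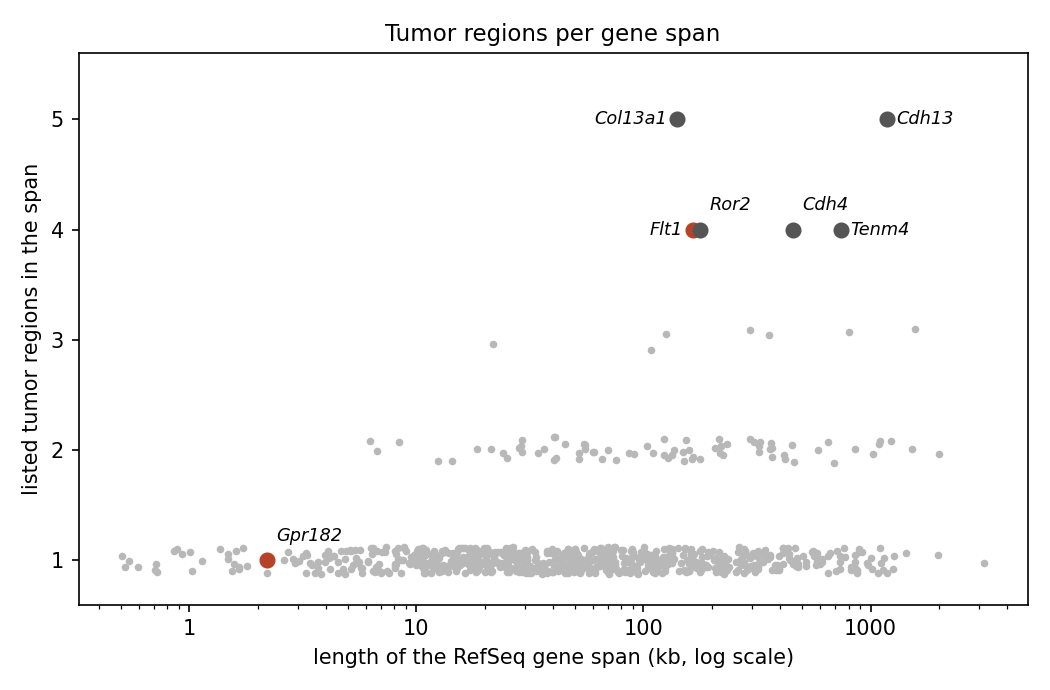
Each point is 1 RefSeq gene span that holds at least 1 listed tumor region, with its length in kb on a logarithmic horizontal axis and its number of tumor regions on the vertical axis (small grey points are jittered vertically). Flt1, with 4 regions in 165 kb, and Gpr182, with 1 region in 2.20 kb, are in red, and the other spans with at least 4 regions in dark grey.

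Around Flt1 lay listed regions of both signs, beside 68.7% positive over the whole tumor list. Beyond the end of the gene lay 2 positive regions of Flt3, a receptor tyrosine kinase gene of blood progenitors, at 31.5 and 23.3 points in the authors' deposited table. On the other side, a region listed for the proteasome assembly gene Pomp was positive at 21.8 points in that table, and the next one, inside Mtus2, was negative at -22.3 points. The Flt1 regions thus sat in a row of 10 consecutive positive tumor regions, which ran over 3259 kb of chromosome 5. The 10 include the 4 Flt1 regions themselves, which were chosen for being listed. Of the 338 rows of positive regions in the tumor list, 15 had at least 10 members, and these 15 held 17.7% of all positive regions.

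**Figure D3:**
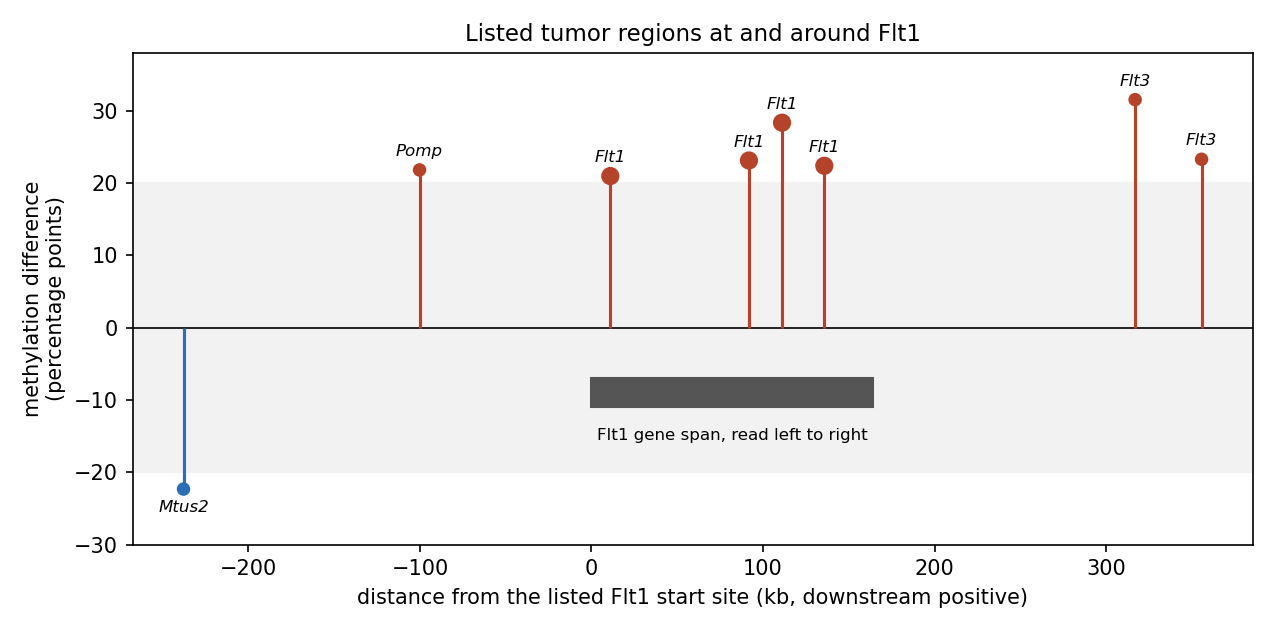
Listed tumor regions within 400 kb of the Flt1 span are drawn by their distance from the listed Flt1 TSS in kb and their methylation difference in percentage points, with the gene span as a dark bar running downstream to the right. The 4 Flt1 regions (large points) lie between 20.98 and 28.4 points within the bar, and Mtus2 alone is negative, at -22.3 points.

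Kdr, the VEGFR2 gene, had 1 tumor region, and it was not in the gene. The region at chr5:75835662-75835764 (mm10) differed by 25.3 points in the authors' deposited table, with 5 DMCs among 14 CpG sites in 103 bp. It lay 143 kb from the Kdr TSS on the downstream side, 97063 bp past the end of the gene span at chr5:75932827-75979072, and inside no annotated span. Kit, a receptor tyrosine kinase gene of blood and germ cells, is the next coding gene on the far side, and its own listed region was 310 kb away with -20.1 points in that table. As many CpG sites as in the Kdr region were found in 7.69% of the tumor regions, so it was one of the CpG-richer entries. The name Kdr rests on the nearest TSS only.

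Gpr182, the chemokine receptor gene of sinusoidal endothelium, had by far the longest and most CpG-laden of the 7 tumor regions. At chr10:127749344-127751037 (mm10) the authors' deposited table gave a difference of 22.9 points over 1694 bp, with 21 DMCs among 45 CpG sites. The region was the longest in the tumor list, and 1.03% of tumor regions had as many sites. It covered 65.4% of the short Gpr182 span (chr10:127749602-127751798, minus strand), starting 761 bp downstream of the TSS and running past the end of the gene. The difference itself was of middle size, since 51.0% of positive tumor regions were at least as large. It was the only region of these genes in tumors within 10 kb of a TSS, where 24.6% of tumor regions lay. The closest listed region, 20.8 kb away in the neurokinin gene Tac2, was negative (-26.6 points in the authors' deposited table).

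Cdh5, the VE-cadherin gene, went the other way. Its single tumor region, at chr8:104091497-104091550 (mm10), differed by -21.6 points in the authors' deposited table, with 4 DMCs among 8 CpG sites in 54 bp. Of the tumor regions, 31.3% were negative, and 70.2% of these were at least as large as the Cdh5 region. It lay 10075 bp upstream of the Cdh5 TSS, outside the Cdh5 span (chr8:104101613-104144504, plus strand) and inside Gm29682, a noncoding gene whose span overlaps the start of Cdh5. With 14.8 CpG sites per 100 bp it was the densest of the 7, next to 13.6 for Kdr, 1.94 to 6.06 for the Flt1 regions and 2.66 for Gpr182. The median of the tumor list was 4.07 per 100 bp. These densities may count both DNA strands, since in 3 of the 1711 regions more sites were listed than a single strand of that length can hold. The nearest other entry, at Car7, was 471 kb away and negative too, at -20.996 points in that table.

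**Figure D4:**
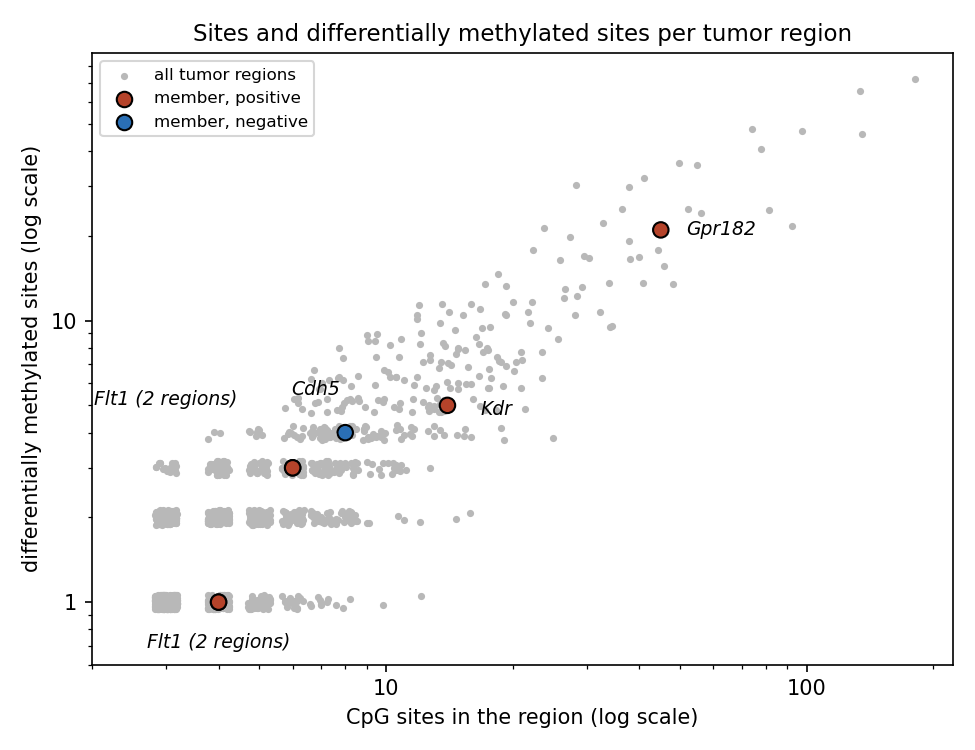
Each grey point is 1 of the 1547 tumor regions, with its CpG sites and its DMCs on logarithmic axes (jittered), and the large points are the 7 tumor regions of Flt1, Kdr, Gpr182 and Cdh5. Gpr182 stands among the largest regions with 21 DMCs of 45 sites, while 2 Flt1 regions rest on 1 DMC of 4 sites.

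Vash1, the vasohibin-1 gene, was the only one of the 5 with an entry outside tumors. In normal liver, where 30.8% of the 107 regions were positive and 69.2% negative, the region at chr12:86687602-86688178 (mm10) differed by -26.3 points in the authors' deposited table. It lay inside the Vash1 span (chr12:86678700-86695688, plus strand), 8.90 kb downstream of the TSS, and ranked 11th of the 74 negative regions of normal liver by size. The support was thin, with 1 DMC among 3 CpG sites spread over 577 bp, or 0.520 sites per 100 bp. Vash1 had 0 regions in the tumor list, whose only entry within 400 kb of the gene was at Esrrb (-22.9 points in that table), a nuclear receptor gene. Whether the difference at Vash1 itself differs between normal liver and tumors was not tested, because the tumor value at that position is not in the list.

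None of the 5 genes had an entry in non-tumor liver, where the list held 57 regions, 59.6% of them positive. No region inside the 5 gene spans was listed under another gene's name in any tissue. Inside the span of their own listed gene lay 5 of the 7 tumor regions (4 of Flt1 and that of Gpr182), against 31.5% of the tumor list. That 31.5% is a lower bound, since regions listed under an older gene symbol, such as Gpr133, were counted as outside. With Cdh5, whose region is inside a noncoding gene, 6 of the 7 were inside some gene span, against 55.1% of the list.

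The other genes of the vascular system were read from 7 lists, which hold 159 genes with the 5 included. Of the 159 genes, 28 (17.6%) were the nearest gene of at least 1 tumor region, and 24 of 154 (15.6%) without the 5. Of all 21896 protein-coding genes in the RefSeq table, 5.06% were. The lists were drawn up with earlier results of these data known. Leaving out the 5 genes therefore does not remove that choice, and the shares are a description only. The distance between neighbouring genes and the number of MspI fragments around them, both of which bear on how often a gene is named, were not tested. The 35 tumor regions of the vascular genes were positive in 25 cases (71.4%), and 19 of 28 (67.9%) were without the 5 genes, close to the 68.7% of the whole tumor list. Their median difference was 21.5 points, and 20.8 points without the 5 genes, against 21.4 points over the list. These medians also mix both signs and follow the share of positive regions, so they do not compare sizes.

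Among VEGF ligands and receptors, 4 of 10 genes had tumor regions, and all 4 were receptors or co-receptors. Flt1 and Kdr among them were chosen for being listed. Of all coding genes 5.06% were listed in tumors, and 68.7% of all tumor regions were positive. Beside Flt1 and Kdr on the positive side stood Flt4, the VEGFR3 gene of lymphatic endothelium, with a negative region 20.2 kb upstream of its TSS (-20.2 points, 1 DMC among 3 sites, in the authors' deposited table). Nrp2, a neuropilin co-receptor gene, was negative too (-24.4 points in that table), but its region lay 521 kb upstream, inside the span of Pard3b. None of the ligand genes was listed in any tissue. With 5.06% of all coding genes listed in tumors, so few ligand genes may well hold none. A difference between receptors and ligands was not tested.

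In VEGF signal transduction and oxygen sensing, 4 of 24 genes were listed in tumors, beside 5.06% of all coding genes. Their 5 regions were all positive in the authors' deposited table, where 68.7% of all tumor regions were. Ptprb, which encodes a phosphatase of endothelial receptors and junctions, differed by 20.8 points inside its span, 9.33 kb downstream of the TSS. Prkcb, a protein kinase C gene, differed by 25.2 points with 5 DMCs among 8 sites, 21.9 kb upstream. Egln3, a prolyl hydroxylase gene that marks hypoxia-inducible factors for destruction, had 21.5 points at 2.08 kb and 24.4 points at 280 kb downstream, the second inside the span of Npas3. Hspb1, a small heat shock protein gene, had 21.7 points at 2.50 kb upstream with 1 DMC.

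Of the other vascular ligand and receptor genes, 8 of 39 had tumor regions, beside 5.06% of all coding genes. Of these regions 8 were positive and 3 negative, where 68.7% of all tumor regions were positive. Both receptors of the chemokine CXCL12 had several distant positive regions in the authors' deposited table, 3 at Ackr3 (29.2, 27.3 and 21.9 points, 94.1 to 149 kb from the TSS) and 2 at Cxcr4 (25.9 and 27.2 points, 121 and 195 kb away). Closer to their genes were positive regions of Aplnr, the apelin receptor gene (20.1 points, 1.22 kb downstream), and Efnb2, an ephrin gene of arteries (20.8 points, inside its span), and Bmper, a regulator of BMP signals, was positive at 27.0 points in that table. On the negative side of that table were Acvrl1, which encodes the endothelial receptor ALK1 (-24.0 points, inside its span), the Notch ligand gene Dll1 (-20.3 points) and the endothelin receptor gene Ednra (-23.2 points).

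Endothelial surface and sinusoidal marker genes were divided. Among them, Cdh5 and Gpr182 were chosen for being listed. Of all coding genes 5.06% were listed in tumors, and 31.3% of all tumor regions were negative. Of 23 junction and surface markers, Cdh5 and Plvap were listed in tumors, both negative. The Plvap region, 58 bp upstream of the TSS of a gene for the diaphragm of fenestrae and caveolae, differed by -25.5 points with 4 DMCs among 7 sites in the authors' deposited table. Of 16 sinusoidal markers, Gpr182 and the transcription factor gene Maf (33.4 points, all 3 sites DMCs, 177 kb from the TSS) were positive in that table. The nuclease gene Dnase1l3 (-26.1 points, 1 DMC) and the transcription factor gene Gata4 (-21.2 points, 1 DMC) were negative. The group median of 0.83 points lies between these signs and describes none of the 4.

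Of 28 endothelial transcription factor genes, 3 were listed in tumors, beside 5.06% of all coding genes. Their 3 regions were all positive in the authors' deposited table, again beside 68.7% of the list. Gata2, needed for endothelial and blood progenitor cells, had 20.4 points with 10 DMCs among 36 sites inside its span. Fli1 (24.7 points) and Ets1 (25.9 points), both ETS family genes, were positive at 11.6 kb upstream and 284 kb downstream of their TSS. Of 20 angiogenesis inhibitors, Thbs1, the thrombospondin-1 gene (20.2 points, 5 DMCs among 19 sites, 1.11 kb downstream), and Col4a2 (20.2 points) were positive in that table and Col15a1 (-21.8 points) was negative. In non-tumor liver the authors' deposited table had 1 vascular entry, Spry1, an inhibitor of growth factor receptor signalling (24.2 points, 6 DMCs among 7 sites), and in normal liver Vash1 alone.

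**Figure D5:**
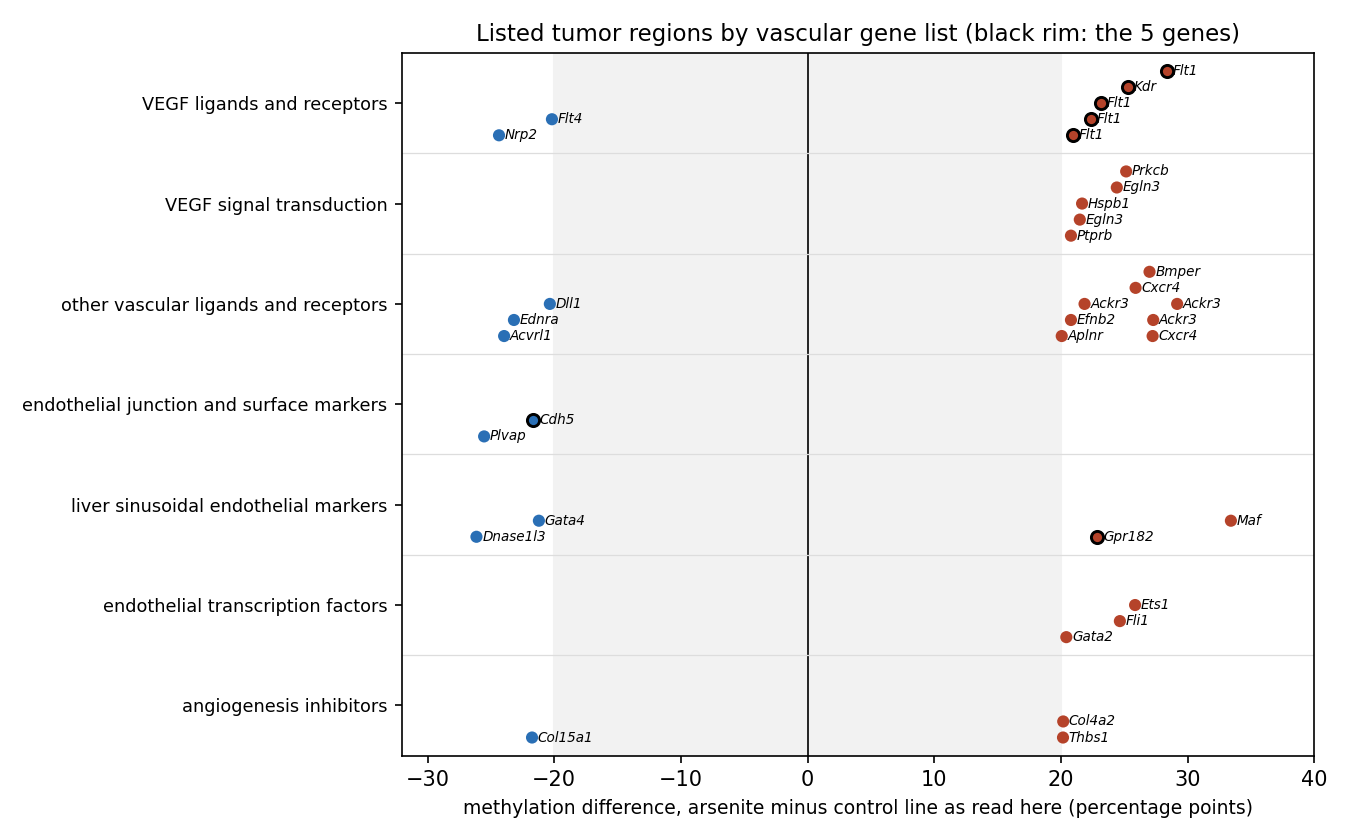
Each point is 1 listed tumor region of a gene in the 7 vascular lists, with its methylation difference in percentage points on the horizontal axis (red positive, blue negative, black rim for Flt1, Kdr, Gpr182 and Cdh5). All 5 regions of VEGF signal transduction and all 3 of endothelial transcription factors are positive, both of the junction and surface markers are negative, and the other lists hold both signs.

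Markers of other liver cells were also read from the lists, and their part in these values was not tested. Of 22 leukocyte and Kupffer cell markers, 4 had tumor regions, 1 positive (Cd8a, 22.1 points) and 3 negative (Ptprc, Cd74 and Zap70, -33.0 to -21.9 points), in the authors' deposited table. Of 15 stellate cell and fibroblast markers, Ngfr alone was listed (-26.0 points in that table). Of the 15 hepatocyte and 9 bile duct markers, 0 were listed in any tissue. Of all coding genes 5.06% were listed in tumors, so lists this short may well hold none. Of all tumor regions 68.7% were positive and 31.3% negative. A difference between cell types was not tested.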

How the data were processed

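Liver DNA of 12 samples in 4 groups was profiled by RRBS, and the authors deposited 3 region lists, each setting 3 arsenite-line against 3 control-line samples. Per the submitters' processing notes, the build was mm10 and the tools were methylKit, Bismark, Trim Galore and bedtools 2.25.0. How regions were called, at which coverage and threshold, and the order of subtraction are details not given in the sources used here. Deposited differences are in percentage points; no region has fewer than 3 CpG sites or 1 DMC. Lengths in all 1711 entries fit 1-based closed intervals.

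Regions were selected by the listed gene symbol, counted by sign and placed against gene spans of the RefSeq table of GRCm38.p6 (overlap of at least 1 bp; all 224 entries of the gene lists matched by symbol or synonym, 220 genes). Named were the 5 genes, every listed gene of the 7 vascular lists, the closest listed regions, and genes with at least 4 tumor regions. The members and lists were chosen with earlier results of these data known. No p-value was computed, because no values per sample exist here. Counting functions were tested on simulated data with known answers. Python 3.11.15 with pandas 2.3.3 was used.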

Additional observations from a re-analysis of the deposited data

How the results depend on the processing

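Alternatives asked for at least 2 DMCs, at least 5 CpG sites, at least 25 points, a TSS within 10 kb, or a place inside the gene span. The 7 tumor regions became 2 at 25 points and 1 within 10 kb (Gpr182). Flt1 kept 2 regions with 2 DMCs, 2 with 5 sites, 1 at 25 points and 0 within 10 kb. The Vash1 region of normal liver was lost with 2 DMCs and with 5 sites, leaving 0. With 2 DMCs, with 5 sites or by gene span, 5 of the 7 tumor regions remained. The median tumor difference was 23.1 points with 2 DMCs or 5 sites and 26.8 points at 25 points, where 2 regions remained. The positive share of the vascular lists ranged from 63.6% (7 of 11, within 10 kb) to 83.3% (10 of 12, at 25 points) around the main 71.4% (25 of 35). The alternatives reuse entries of the same list and several share a gene, so this range is no measure of error. The positive share of the whole tumor list under these alternatives is not given here. Nor is the share of that list kept at 25 points or with 5 sites. Leaving out samples was not run, since the lists hold no values per sample. No paired analysis was possible because the lists hold no values per sample; the numbers 5, 9 and 13 occur in both AATn and AATt. Read depth is unknown here, so no detection limit can be given, and differences under 20 points were not seen.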

Other observations

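Flt1 and Kdr belong to a family of receptor tyrosine kinase genes that sit in neighbouring groups, Pdgfra, Kit and Kdr in one stretch of chromosome 5, Flt3 and Flt1 in another, and Csf1r and Pdgfrb on chromosome 18, with Flt4 alone on chromosome 11. This family was looked at after the values were seen. In tumors the stretch with Flt3 and Flt1 had 6 listed regions, all positive in the authors' deposited table, and 5 of them lay inside the span of their own gene; 4 of the 6 are the Flt1 regions, chosen for being listed. Over the whole tumor list 68.7% of regions were positive and at least 31.5% lay inside the span of their listed gene. The stretch with Kit and Kdr had 1 region of each sign, Kit at -20.1 points and Kdr at 25.3 points in that table, and both lay outside any gene span. Pdgfra, Csf1r and Pdgfrb had 0 regions in every tissue, and none of the 8 genes was listed in normal or non-tumor liver. Flt3, a receptor of blood progenitors and dendritic cells, had the largest difference in its stretch, 31.5 points with 4 DMCs among 5 sites, 8562 bp upstream of its TSS and inside the span of Gm6054.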
